A study of Mus musculus with 29 samples.

Results

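A set of 10 genes of the NF-kB pathway was followed in mouse heart: the transcription factor subunits Nfkb1, Nfkb2, Rela and Relb, the inhibitors Nfkbia, Nfkbiz and Tnfaip3, and the receptors Tlr2, Tlr4 and Cd14. They were chosen by gene symbol with earlier results of these data known, so their counts beside all genes are a description, not a test. The members are 10 of the 20411 genes in the deposited count table. All 10 passed the filter on low counts that left 12928 genes for testing. The hearts came from wildtype BALB/c mice, each of which had received an adeno-associated virus by vein, with a transgene driven by Tbg, a promoter that works in hepatocytes. The group C26_REV-ERBa (10 hearts) had the REV-ERBα transgene and, 10 days after the vector, C26 tumour cells under the skin, and C26_GFP (10 hearts) had the GFP transgene and the same tumour cells. PBS_REV-ERBa (5 hearts) and PBS_GFP (4 hearts) had the same vectors and PBS in place of tumour cells. All animals therefore carried a vector, and its promoter aims expression at the liver, not at the organ that was sequenced. C26 is a mouse colon carcinoma line that is widely used to produce cancer cachexia, and REV-ERBα is a nuclear receptor and transcriptional repressor of the circadian clock.

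NF-kB dimers are held in the cytoplasm by inhibitors of the IkB family and enter the nucleus once the IkB kinase complex marks those inhibitors for degradation. Rela and Nfkb1 (p65 and p50) form the main dimer of the canonical route, which Toll-like, interleukin-1 and tumour necrosis factor receptors switch on, while Relb and Nfkb2 (p52) serve the slower non-canonical route. Nfkbia (IkBα) and Tnfaip3 (the ubiquitin-editing enzyme A20) are themselves transcribed in response to NF-kB and shut the signal off, and Nfkbiz (IkBζ) is an atypical nuclear IkB that modulates a subset of target genes. Tlr2 and Tlr4 recognise microbial lipoproteins and lipopolysaccharide, and Cd14 hands lipopolysaccharide to Tlr4. In heart muscle the pathway is known for its part in inflammation and remodelling. RNA levels show neither the nuclear location nor the phosphorylation of these proteins.

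The promoter letters of 4 members are shown because NF-kB is known to act on these genes and 2 of them, Nfkbia and Nfkb2, changed in these hearts. Cd14 was left out of the search, and whether it has such a window was not recorded. Among the remaining members, RefSeq promoter windows of GRCm38.p6 that began at the gene's own start were found for 4. The 250 bases before the start are printed 5′ to 3′ on the gene's strand. Capitals mark matches to the NF-kB consensus (kB) motif of 10 letters, searched as a fixed pattern on both strands with overlapping matches joined. The pattern was GGG, then A or G, any 2 letters, 2 letters that are C or T, and CC. The windows are chr12:55492648-55492897 on the minus strand for Nfkbia, chr19:46304487-46304736 on the plus strand for Nfkb2, chr10:19015411-19015660 on the minus strand for Tnfaip3 and chr3:83841609-83841858 on the minus strand for Tlr2.
Nfkbia: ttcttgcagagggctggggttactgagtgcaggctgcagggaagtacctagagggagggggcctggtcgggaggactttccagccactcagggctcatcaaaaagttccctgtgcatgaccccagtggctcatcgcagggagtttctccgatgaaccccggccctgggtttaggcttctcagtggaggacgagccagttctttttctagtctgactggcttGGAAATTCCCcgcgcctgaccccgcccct
Nfkb2: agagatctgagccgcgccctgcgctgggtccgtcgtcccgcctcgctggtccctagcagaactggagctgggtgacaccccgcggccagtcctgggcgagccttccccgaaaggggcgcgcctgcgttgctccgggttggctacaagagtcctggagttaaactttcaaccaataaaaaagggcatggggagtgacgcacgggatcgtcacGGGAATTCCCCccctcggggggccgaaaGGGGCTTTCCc
Tnfaip3: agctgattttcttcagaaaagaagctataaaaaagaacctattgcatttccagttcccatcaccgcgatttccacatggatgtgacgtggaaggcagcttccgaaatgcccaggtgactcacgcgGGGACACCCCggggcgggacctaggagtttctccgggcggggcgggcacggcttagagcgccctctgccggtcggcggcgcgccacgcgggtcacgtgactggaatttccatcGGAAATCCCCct
Tlr2: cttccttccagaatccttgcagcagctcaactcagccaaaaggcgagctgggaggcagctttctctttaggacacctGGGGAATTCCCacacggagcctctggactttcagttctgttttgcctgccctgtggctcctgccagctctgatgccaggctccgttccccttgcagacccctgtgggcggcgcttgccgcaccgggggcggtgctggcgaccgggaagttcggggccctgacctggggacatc

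Nfkbia had 1 match, from 29 to 20 bases before the start. Nfkb2 had 2 matches, from 39 to 29 and from 11 to 2 bases before it, and Tnfaip3 also had 2, from 125 to 116 and from 12 to 3 bases before it. In Tlr2 the match lay farther away, from 173 to 163 bases before the start. Of 32851 RefSeq windows of this length, 7.25% held at least 1 match and 0.396% held 2 or more. As Cd14 was left out of the search, the 4 windows shown are not to be weighed against these shares. These matches describe letters, not binding. Of the 4 genes shown, Nfkbia and Nfkb2 passed the test for the tumour in GFP animals, and Tnfaip3 and Tlr2 did not. Whether the changes of these genes differed from each other was not tested.

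Libraries held 3207497 to 16853646 counts, and 5 of them (3 C26_GFP and 2 PBS_GFP) had more than 10000000. The heart label was checked with 10 cardiomyocyte markers such as Myh6, Tnnt2 and Ttn, whose summed level was 48169 to 62380 CPM (counts scaled to a common library size) in C26_REV-ERBa hearts, 45227 to 59324 CPM in C26_GFP hearts, 57057 to 67962 CPM in PBS_REV-ERBa hearts and 59899 to 64479 CPM in PBS_GFP hearts. Nr1d1, the mouse gene for REV-ERBα, did not pass the test in the hearts for the REV-ERBα vector against GFP, with a tumour (log2 fold change 0.28 ± 0.16 SE, edgeR adjusted p = 0.288) or without it (0.03 ± 0.24, adjusted p = 1), and a hepatocyte promoter makes this no check of the vector. Because whole hearts were used, more cells of a type and more RNA per cell cannot be told apart in any value below.

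Per kilobase of counted length, which allows levels to be set against each other between genes, Nfkbia was the most abundant member and Tnfaip3 the least. Over the 29 hearts Nfkbia averaged 35.1 ± 13.1 CPM per kb (SD, n = 29), Rela 27.0 ± 2.24 and Nfkb1 10.8 ± 0.867. Tlr4 (9.98), Cd14 (8.15) and Relb (6.66) followed, then Nfkb2 (5.02), Nfkbiz (2.99), Tlr2 (2.70) and Tnfaip3 (1.75), all as mean CPM per kb. Rela stood above Nfkb1, and Nfkb2 above Nfkbiz, in all 29 hearts. The ranges of Rela and Nfkb1 over the hearts were fully apart, while those of Nfkb2 and Nfkbiz overlapped. Nfkbia stood above Rela in only 17 of 29 hearts, and the order of Tlr4 over Cd14, Cd14 over Relb and Nfkbiz over Tlr2 held in 20 of 29 each, so these neighbours overlap. Nfkbia was above Rela on average in tumour-bearing hearts, with 32.4 against 26.4 CPM per kb in C26_REV-ERBa and 47.2 against 28.8 in C26_GFP, and close below it in PBS_REV-ERBa (24.1 against 26.1) and in PBS_GFP (25.2 against 25.3). Between hearts, Nfkbia varied more than Rela did.

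**Figure D1:**
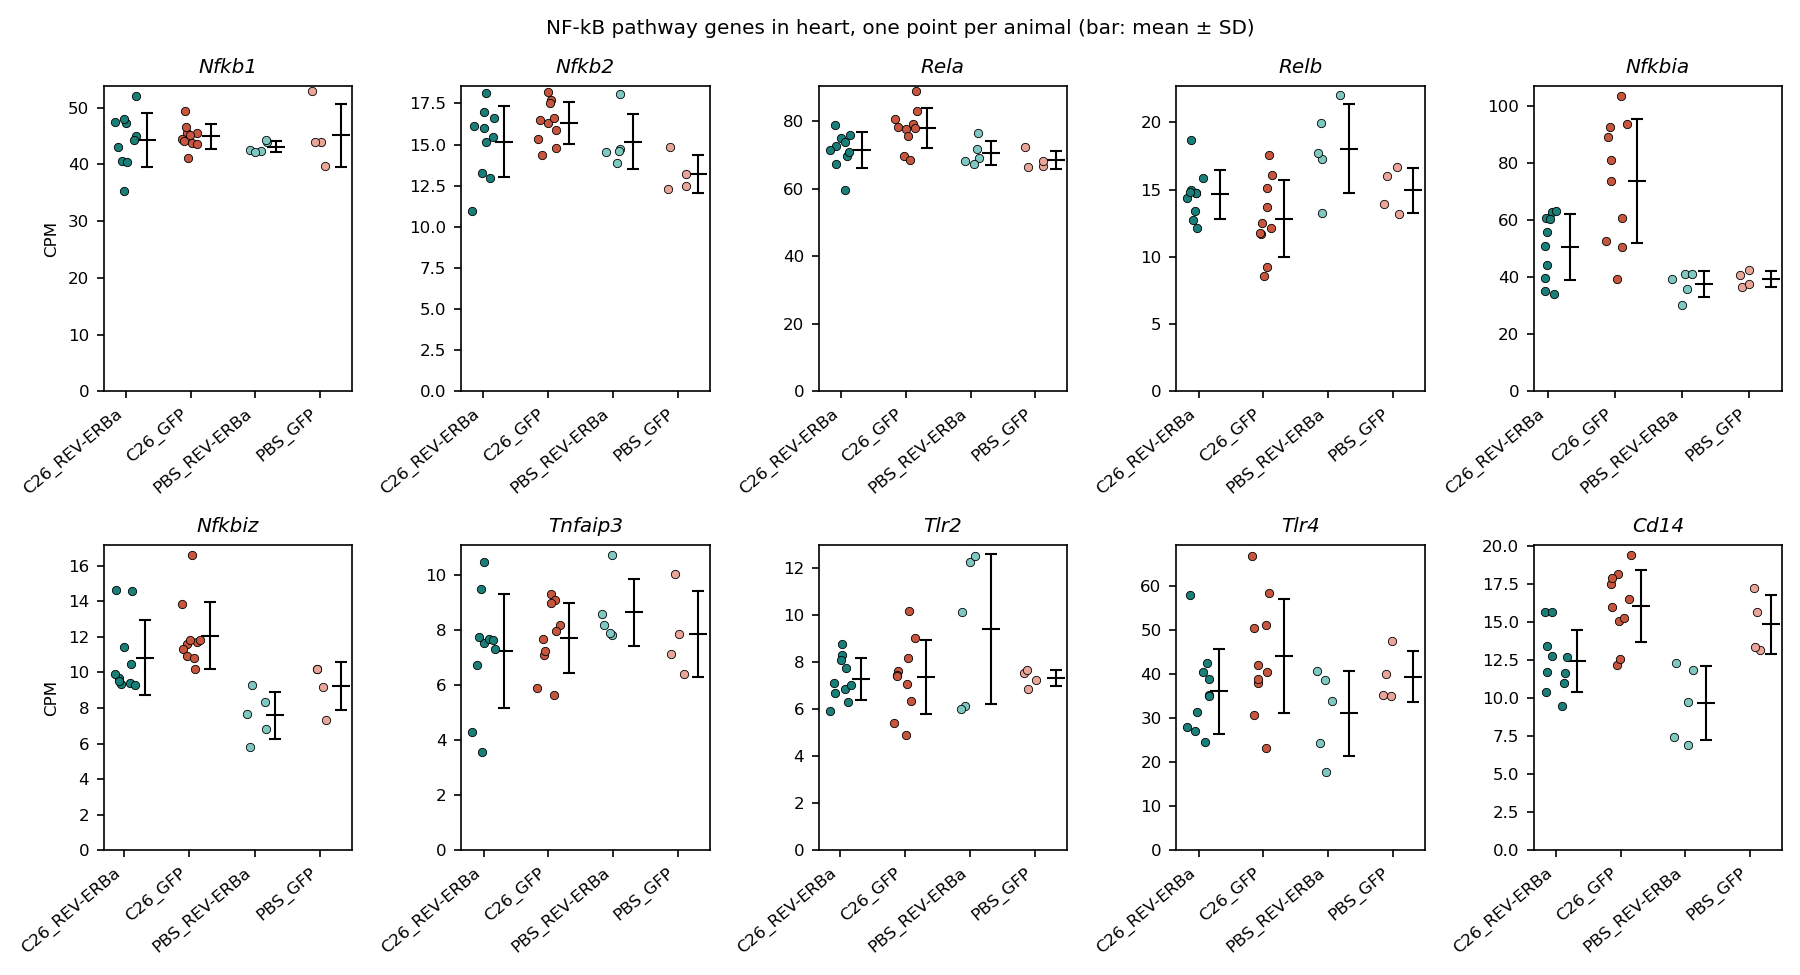
CPM of each of the 10 genes (y axis, starting at 0, with its own scale in each panel) in the 4 groups (x axis), with 1 point per heart and bars for the mean ± SD. Nfkbia averages 50.7 CPM in C26_REV-ERBa, 73.8 in C26_GFP, 37.6 in PBS_REV-ERBa and 39.4 in PBS_GFP, and for most other genes the 4 clouds of points overlap.

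The first comparison asked what the tumour changed in hearts of GFP animals. Nfkbia, Nfkbiz, Nfkb2 and Rela were higher in C26_GFP than in PBS_GFP hearts, by 1.87-fold, 1.32-fold, 1.22-fold and 1.14-fold, and no member was lower. The other 6 members did not pass. So 4 of 10 members passed, all upward, in a comparison in which 28.2% of the 12928 genes tested passed in either direction, 14.2% upward and 14% downward, and 39.1% had an unadjusted p under 0.05. The median log2 fold change was 0.14 over the members and -2.85e-05 over all genes tested. No member had groups that were fully apart, against 5.65% of all genes tested whose C26_GFP hearts all lay above the PBS_GFP hearts and 6.31% whose C26_GFP hearts all lay below.

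Among the inhibitors, Nfkbia (chromosome 12, 55489409 to 55492647, minus strand) had the largest difference. It ranged over 39.5, 77.4 and 103 CPM (lowest, median and highest) in C26_GFP hearts, against 42.5, 36.7, 40.7 and 37.8 CPM in the PBS_GFP hearts. Replicate 6 of C26_GFP lay within the PBS_GFP range, and the other 9 C26_GFP hearts, from 50.6 CPM upward, all lay above it. The means were 73.8 ± 21.8 CPM (SD, n = 10) in C26_GFP and 39.4 ± 2.64 CPM (SD, n = 4) in PBS_GFP, a log2 fold change of 0.90 ± 0.20 SE (edgeR adjusted p = 0.0015). Leaving out any 1 library kept this call, with log2 fold changes of 0.84 to 0.98. The spread among C26_GFP hearts, with a coefficient of variation of 29.5%, was wider than among PBS_GFP hearts, where it was 6.71%.

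Nfkbiz (chromosome 16, 55811377 to 55838641, minus strand) had 10.2, 11.7 and 16.6 CPM (lowest, median and highest) in C26_GFP hearts, against 7.34, 10.2, 9.18 and 10.2 CPM in PBS_GFP hearts. The groups met at 10.2 CPM and otherwise did not mix. The log2 fold change was 0.40 ± 0.14 (edgeR adjusted p = 0.0326), and the call was lost without C26_GFP replicate 8 (adjusted p = 0.053) and without PBS_GFP replicate 1 (0.207) or 3 (0.0611). Tnfaip3, the second feedback inhibitor, had 5.66, 7.82 and 9.30 CPM in C26_GFP hearts, against 7.14, 7.86, 10.0 and 6.40 CPM in PBS_GFP hearts. Its groups overlapped over most of their range, with a log2 fold change of -0.01 ± 0.18 (adjusted p = 0.981).

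Among the subunits, Nfkb2 (chromosome 19, 46304737 to 46312090, plus strand) had 14.4, 16.4 and 18.2 CPM in C26_GFP hearts, against 14.8, 12.3, 13.2 and 12.5 CPM in PBS_GFP hearts. The groups overlapped through PBS_GFP replicate 1, and the log2 fold change was 0.29 ± 0.10 (edgeR adjusted p = 0.0249). Without PBS_GFP replicate 2, 3 or 4 the adjusted p was 0.113, 0.0525 or 0.0675. Nfkb2 was the only member that overlapped other genes in the annotation, Psd by 299 bases and AC114539.1 by 531 bases, both on the opposite strand. The sources used here do not say whether counting used strand, so reads of those genes cannot be told apart from its own.

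Rela (chromosome 19, 5637490 to 5648130, plus strand) had 68.5, 78.2 and 89.0 CPM in C26_GFP hearts, against 66.4, 66.9, 72.3 and 68.3 CPM in PBS_GFP hearts. The difference was small next to the level, with a log2 fold change of 0.19 ± 0.06 (edgeR adjusted p = 0.023), and the groups overlapped. Without PBS_GFP replicate 1, 2 or 4 the adjusted p was 0.0805, 0.072 or 0.0517. Nfkb1, its usual partner, did not pass: it averaged 44.9 ± 2.17 CPM in C26_GFP and 45.1 ± 5.58 CPM in PBS_GFP hearts (log2 fold change 0.01 ± 0.07, adjusted p = 0.968). Relb averaged 12.8 ± 2.84 CPM in C26_GFP and 14.9 ± 1.65 CPM in PBS_GFP hearts, with a log2 fold change of -0.20 ± 0.14 (adjusted p = 0.322).

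None of the 3 receptors passed. Tlr4 ranged from 23.2 to 66.8 CPM in C26_GFP hearts, against 35.0 to 47.4 CPM in PBS_GFP hearts, so the PBS_GFP range lay inside the C26_GFP range (log2 fold change 0.16 ± 0.22, edgeR adjusted p = 0.624). Cd14 averaged 16.1 ± 2.36 CPM in C26_GFP and 14.9 ± 1.94 CPM in PBS_GFP hearts (0.12 ± 0.13, adjusted p = 0.532). Tlr2 averaged 7.37 ± 1.58 CPM in C26_GFP and 7.34 ± 0.348 CPM in PBS_GFP hearts (0.00 ± 0.17, adjusted p = 0.999). The receptor genes thus gave no call, and their standard errors leave room for changes of the size seen in Rela.

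Depth differed among the hearts of this comparison, and also between the vectors that are compared below. The 5 libraries above 10000000 counts were 3 of C26_GFP and 2 of PBS_GFP, and none carried the REV-ERBα vector. Without them 1 of 10 members passed, Nfkbia, with a log2 fold change of 0.99 (edgeR adjusted p = 0.0183), while Nfkb2 (0.36, adjusted p = 0.112), Rela (0.17, adjusted p = 0.212) and Nfkbiz (0.35, adjusted p = 0.285) did not pass. Those log2 fold changes lie near the 0.29, 0.19 and 0.40 of all libraries, and their standard errors are larger, with 7 C26_GFP and 2 PBS_GFP hearts left.

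**Figure D2:**
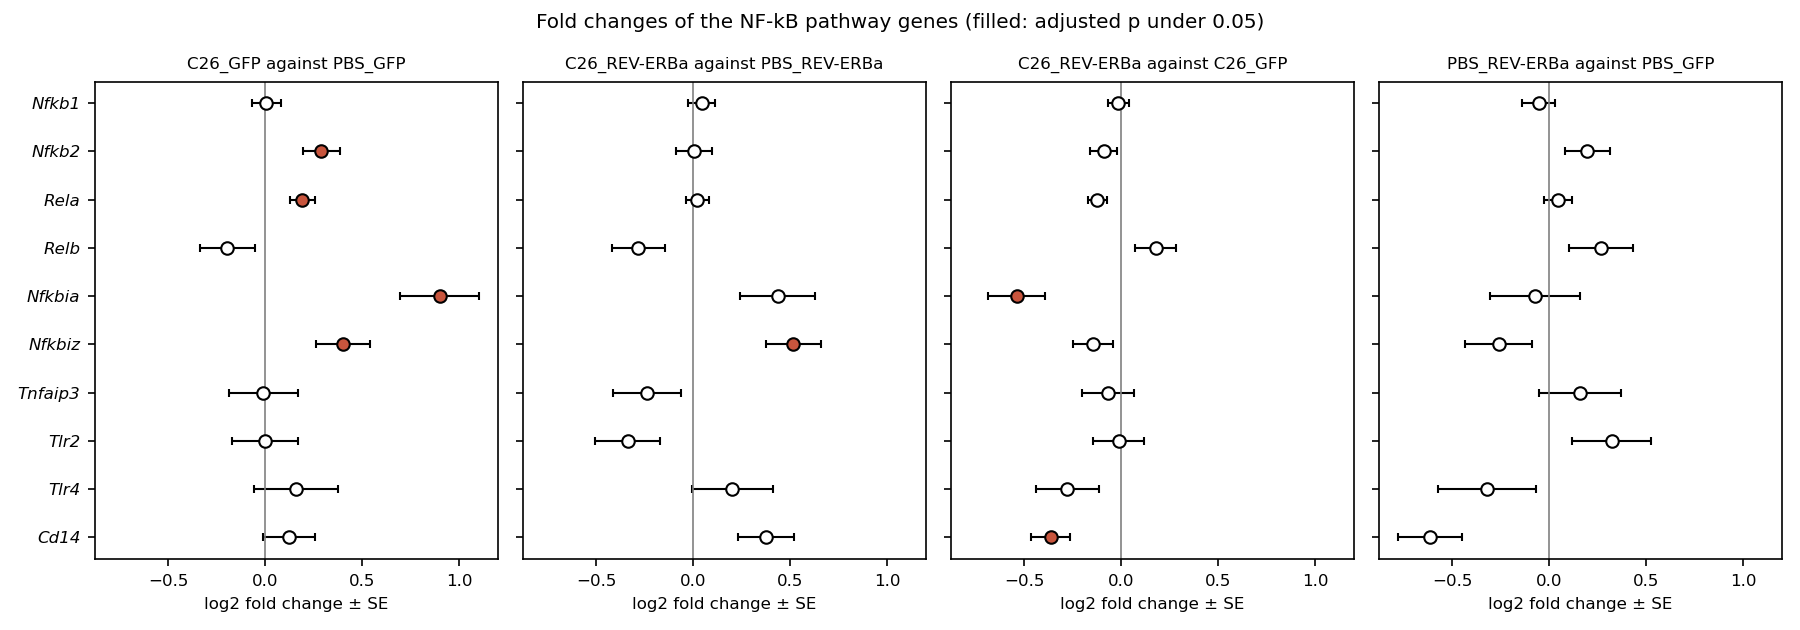
Log2 fold change ± SE (x axis) of each of the 10 genes (y axis) in the comparisons named above the panels, with filled points for an edgeR adjusted p under 0.05. Nfkbia is at 0.90 for C26_GFP against PBS_GFP and at -0.54 for C26_REV-ERBa against C26_GFP, and most other points lie within 0.4 of zero.

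The next comparison asked what the REV-ERBα vector changed in tumour-bearing animals. Nfkbia and Cd14 were lower in C26_REV-ERBa than in C26_GFP hearts, at 0.688 and 0.777 of the C26_GFP level, and no member was higher. So 2 of 10 members passed, both downward, where 7.2% of all genes tested passed in either direction, 3.75% upward and 3.45% downward, and 24.3% had an unadjusted p under 0.05. Log2 fold changes were negative for 9 of 10 members, with Relb the exception at 0.18 ± 0.11 (edgeR adjusted p = 0.317), and their median was -0.11 against 0.00 over all genes tested, of which 50.9% had a log2 fold change above 0. This comparison and the one above share the C26_GFP hearts, so a high C26_GFP level enters both with opposite sign.

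Nfkbia had 34.1, 53.4 and 63.2 CPM (lowest, median and highest) in C26_REV-ERBa hearts, against 39.5, 77.4 and 103 CPM in C26_GFP hearts. The highest C26_REV-ERBa heart lay below the median of C26_GFP, while the lower ends of the groups overlapped. The means were 50.7 ± 11.5 CPM in C26_REV-ERBa and 73.8 ± 21.8 CPM in C26_GFP (SD, n = 10 each), a log2 fold change of -0.54 ± 0.15 (edgeR adjusted p = 0.0272). The call was lost without C26_REV-ERBa replicate 1 (adjusted p = 0.0546), 7 (0.0632) or 10 (0.0565) and without C26_GFP replicate 7 (0.0583) or 10 (0.068). It was also lost when only these 2 groups were fitted (0.0665).

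Cd14 had 9.50, 12.2 and 15.7 CPM in C26_REV-ERBa hearts, against 12.2, 16.2 and 19.4 CPM in C26_GFP hearts. The groups overlapped between 12.2 and 15.7 CPM, and the log2 fold change was -0.36 ± 0.10 (edgeR adjusted p = 0.032). Its call was lost without any of 7 libraries, C26_REV-ERBa replicates 1 (adjusted p = 0.058), 4 (0.055), 5 (0.052), 7 (0.0599) and 8 (0.0505) and C26_GFP replicates 1 (0.0506) and 5 (0.0516). Without the 5 deepest libraries the adjusted p was 0.0902. In these 8 fits its log2 fold change lay between -0.36 and -0.31.

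The remaining members did not pass for the vector under a tumour. Rela averaged 71.6 ± 5.34 CPM in C26_REV-ERBa and 78.0 ± 5.95 CPM in C26_GFP hearts (log2 fold change -0.12 ± 0.05, edgeR adjusted p = 0.102). Tlr4 averaged 36.0 ± 9.66 CPM in C26_REV-ERBa and 44.0 ± 12.9 CPM in C26_GFP hearts (-0.28 ± 0.16, adjusted p = 0.295). Nfkb2 (-0.09 ± 0.07), Nfkbiz (-0.15 ± 0.10), Tnfaip3 (-0.07 ± 0.13), Nfkb1 (-0.02 ± 0.05) and Tlr2 (-0.01 ± 0.13) did not pass either, with the log2 fold changes given. Rela passed without C26_REV-ERBa replicate 9 (adjusted p = 0.044) or C26_GFP replicate 6 (0.0438).

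Without a tumour, 0 of 10 members passed for the REV-ERBα vector, where 0% of all genes tested passed. At an unadjusted p under 0.05 edgeR found 1 member, Cd14, and 530 of 12928 genes, or 4.1%, and DESeq2 and limma voom with sample weights each called 1 gene, no member among them. Cd14 had 12.3, 6.95, 9.75, 7.47 and 11.9 CPM in PBS_REV-ERBa hearts, against 15.7, 13.2, 17.2 and 13.4 CPM in PBS_GFP hearts. Every PBS_REV-ERBa heart lay below every PBS_GFP heart, a pattern that 0.774% of all genes tested shared. The log2 fold change was -0.62 ± 0.17 with an unadjusted p of 0.000876 and an edgeR adjusted p of 1. Nfkbia, which passed under a tumour, averaged 37.6 ± 4.53 CPM in PBS_REV-ERBa and 39.4 ± 2.64 CPM in PBS_GFP hearts here (-0.08 ± 0.23, adjusted p = 1).

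The tumour in REV-ERBα animals gave 1 of 10 members higher, Nfkbiz, and none lower, where 7.23% of all genes tested passed in either direction, 4.05% upward and 3.19% downward, and 23.6% had an unadjusted p under 0.05. Nfkbiz had 9.27, 9.80 and 14.7 CPM (lowest, median and highest) in C26_REV-ERBa hearts, against 5.83, 9.27, 8.36, 7.66 and 6.81 CPM in PBS_REV-ERBa hearts. The groups met at 9.27 CPM and otherwise did not mix. The log2 fold change was 0.52 ± 0.14 (edgeR adjusted p = 0.0261), and the call was lost without PBS_REV-ERBa replicate 1 (0.0793), 4 (0.0551) or 5 (0.0872) and when only these 2 groups were fitted (0.0502). Nfkbiz thus passed for the tumour under both vectors.

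Nfkbia had 34.1, 53.4 and 63.2 CPM in C26_REV-ERBa hearts, against 41.1, 41.1, 36.0, 30.5 and 39.5 CPM in PBS_REV-ERBa hearts. The groups overlapped, and the log2 fold change of 0.44 ± 0.19 did not pass (edgeR adjusted p = 0.162). Cd14 (0.38 ± 0.14, adjusted p = 0.104), Relb (-0.28 ± 0.14, adjusted p = 0.202) and Tlr2 (-0.34 ± 0.17, adjusted p = 0.22) did not pass. Nfkb2 averaged 15.2 ± 2.15 CPM in C26_REV-ERBa and 15.2 ± 1.65 CPM in PBS_REV-ERBa hearts, a log2 fold change of 0.00 ± 0.09.

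Whether the tumour effect differed between vectors was tested as the difference of the 2 log2 fold changes, REV-ERBα minus GFP, with all 4 groups in the fit. In this test 0 of 10 members and 0% of all genes passed in edgeR. At an unadjusted p under 0.05 there were 1 member and 1357 of all genes, or 10.5% of those tested, and DESeq2 called 15 genes and limma voom with sample weights 4, with no member among either. The member was Nfkb2, at -0.29 ± 0.13 with an unadjusted p of 0.0419. For Nfkbia the difference was -0.46 ± 0.28 (edgeR adjusted p = 0.546), for Rela -0.17 ± 0.09 (adjusted p = 0.496) and for Cd14 0.25 ± 0.20 (adjusted p = 0.656). The call for Nfkbia in GFP animals and its absence in REV-ERBα animals are therefore not shown to differ.

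**Figure D3:**
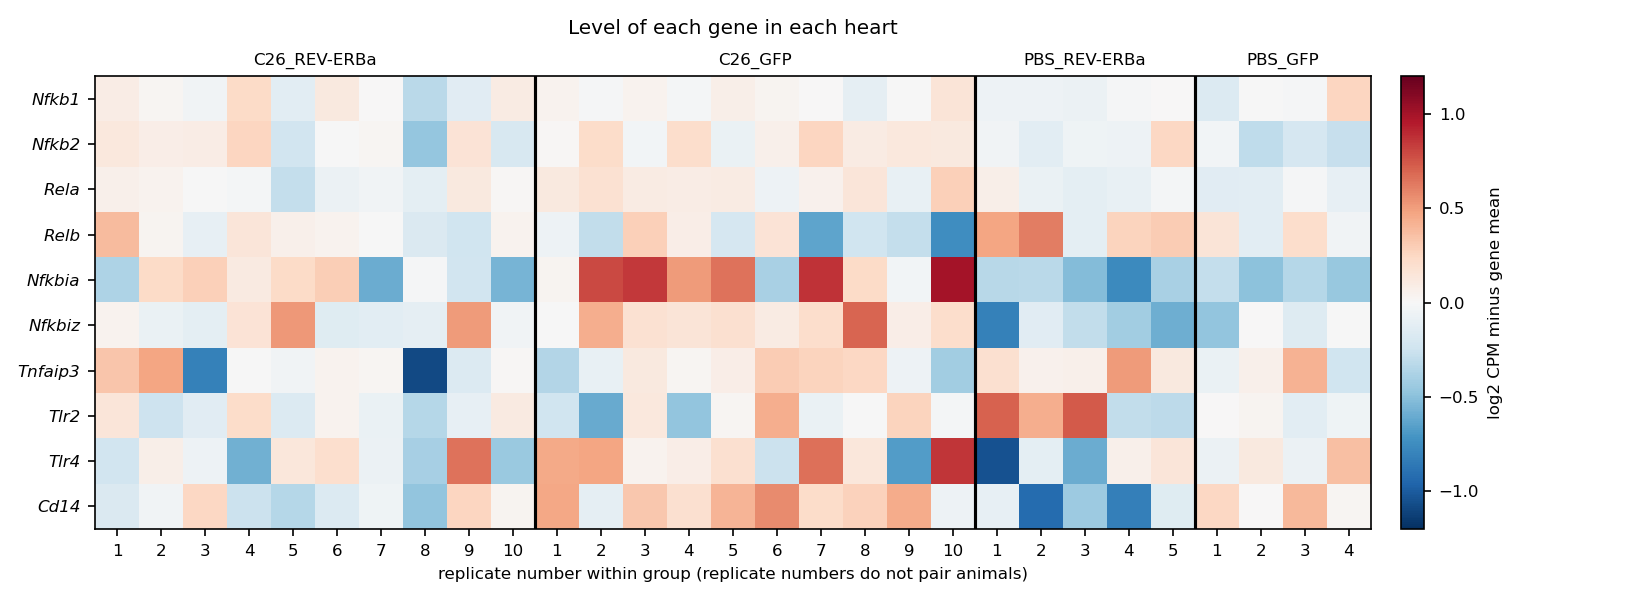
Log2 CPM minus the gene's mean over all hearts (colour) for the 10 genes (rows) in the 29 hearts (columns, by group and replicate number). Nfkbia is above its mean in most C26_GFP hearts and reaches its highest level in replicate 10, and C26_REV-ERBa replicate 8 is low for several genes.

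Single animals stood out across several members, as the map of levels by heart shows. C26_GFP replicate 10 had the highest level of its group for 4 of 10 members (Nfkb1, Rela, Nfkbia and Tlr4) and the lowest for Relb and Tnfaip3. C26_REV-ERBa replicate 8 had the lowest level of its group for 5 of 10 members (Nfkb1, Nfkb2, Tnfaip3, Tlr2 and Cd14), and it was the shallowest library of that group with 3376113 counts. The part of depth in these values was not tested.

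To see what surrounds the members, 122 other genes of the pathway in 8 lists were read, of which 102 were tested. These lists too were chosen with earlier results of these data known, so their counts describe and do not test. In C26_GFP against PBS_GFP hearts 27 of the 102 were higher and 8 lower, beside 14.2% higher and 14% lower among all genes tested, with a median log2 fold change of 0.17. Several of the lists below hold few calls, and their counts are to be read against those shares. Among other IkB family genes 1 of 4 was higher, Bcl3, an atypical nuclear IkB that binds p50 and p52, at 15.7 ± 2.98 CPM in C26_GFP and 5.71 ± 1.44 CPM in PBS_GFP hearts (log2 fold change 1.54 ± 0.22, edgeR adjusted p = 1.21e-05). Rel, the remaining subunit gene, did not pass (0.05). Of 24 IkB kinase and signalling genes 3 were higher and 2 lower: the adaptor Myd88 (0.55 ± 0.12) and the kinase Irak4 (0.60 ± 0.14) rose, and Traf3, a brake on the non-canonical route, fell (-0.60 ± 0.11).

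Of 18 other negative regulators 4 were higher and 2 lower in C26_GFP than in PBS_GFP hearts. Irak3, a pseudokinase that damps Toll-like receptor signalling, had 22.3 ± 2.85 CPM in C26_GFP and 9.62 ± 1.23 CPM in PBS_GFP hearts (log2 fold change 1.19 ± 0.10, edgeR adjusted p = 1.43e-08), Tnip2, an A20-binding protein, rose by 0.53 ± 0.10 on the log2 scale, and Rnf11, a part of the A20 complex, fell by 0.33 ± 0.07. Of 13 other Toll-like receptors and co-receptors 2 were higher, the lipopolysaccharide-binding protein Lbp (2.18 ± 0.36) and Tlr13 (0.69 ± 0.25), and 11 did not pass. Of 9 cytokine receptors 4 were higher and none lower, with Il1r1 at 1.04 ± 0.13, Tnfrsf1a at 0.85 ± 0.09 and Tnfrsf1b at 0.73 ± 0.13. The receptors for interleukin-1 and tumour necrosis factor were thus higher in hearts in which Tlr2, Tlr4 and Cd14 did not pass.

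Of 5 tested cytokine ligand genes 2 were higher and 1 lower. The alarmin Il33 rose, with 41.9 ± 11.4 CPM in C26_GFP and 12.2 ± 4.19 CPM in PBS_GFP hearts (log2 fold change 1.80 ± 0.28). Il1rn, which encodes the antagonist of the interleukin-1 receptor, rose too, with 1.40 CPM in C26_GFP and 0.130 CPM in PBS_GFP hearts (3.36 ± 0.69), while Tnf fell, with 0.611 CPM in C26_GFP and 1.49 CPM in PBS_GFP hearts (-1.19 ± 0.38, edgeR adjusted p = 0.0173). Il1rn and Tnf lie near the floor at these levels, so their fold changes rest on few counts. Of 28 NF-kB target genes 11 were higher and 3 lower, with a median log2 fold change of 0.43. Lcn2, an iron-carrier binding protein of the acute phase, had 16.5 ± 11.5 CPM in C26_GFP and 0.890 ± 0.800 CPM in PBS_GFP hearts (log2 fold change 4.48 ± 0.77, adjusted p = 9.61e-05). On the log2 scale the adhesion molecule Icam1 rose by 0.94 ± 0.13 and the transcription factor Cebpd by 1.37 ± 0.25. Many of these target genes are known to answer to other factors as well, so the list is not specific to NF-kB.

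For the REV-ERBα vector under a tumour, 1 of the 102 other pathway genes was higher and 7 were lower, with a median of -0.03. Beside the 7.2% of all genes tested that passed in this comparison, this number is near the background and is no result about the pathway as a whole. Lcn2 was lower, at 3.51 ± 2.70 CPM in C26_REV-ERBa and 16.5 ± 11.5 CPM in C26_GFP hearts (log2 fold change -2.22 ± 0.41, edgeR adjusted p = 0.00655). Il1rn was lower too (-1.84 ± 0.40), with 0.375 CPM in C26_REV-ERBa and 1.40 CPM in C26_GFP hearts, again near the floor. Icam1 (-0.40 ± 0.09), Irak3 (-0.28 ± 0.07), Myd88 (-0.29 ± 0.08) and Otulin, a deubiquitinase that trims linear ubiquitin chains (-0.42 ± 0.12), were also lower. The 7th was the target gene Cebpb (-0.65 ± 0.19, adjusted p = 0.0398), named after its value was seen, and the gene that was higher was Sod2, the mitochondrial superoxide dismutase (0.32 ± 0.09). Without a tumour none of the 102 passed for the vector. For the tumour in REV-ERBα animals 13 were higher and 1 lower, beside 4.05% and 3.19% of all genes tested, and none passed for the difference between the tumour effects.

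**Figure D4:**
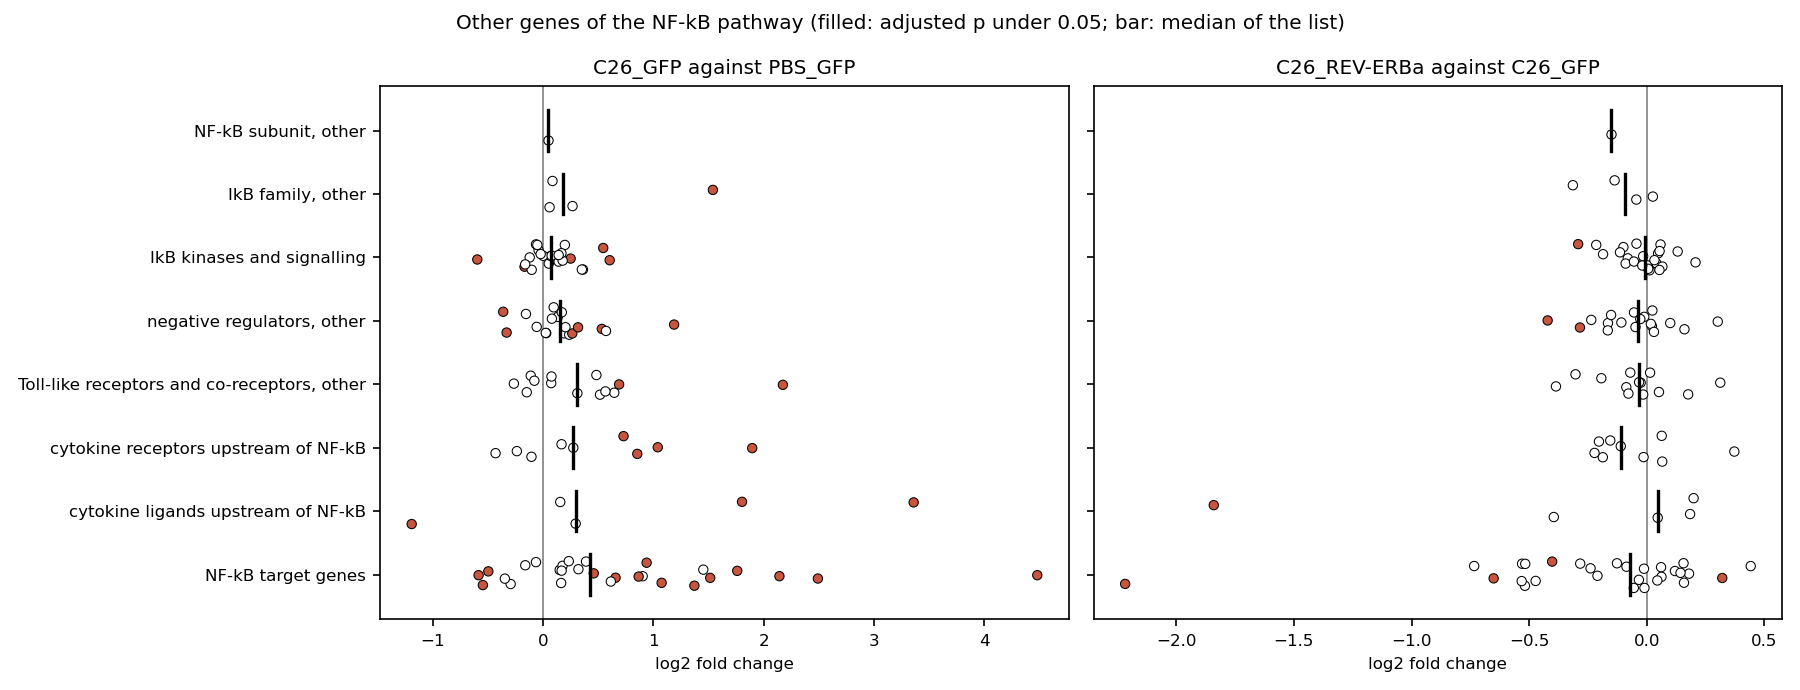
Log2 fold change (x axis, with a different scale in each panel) of the tested genes of 8 pathway lists (y axis) for C26_GFP against PBS_GFP (left) and C26_REV-ERBa against C26_GFP (right), with 1 point per gene, filled for an edgeR adjusted p under 0.05, and a bar at each list's median. The left panel holds 27 filled points above 0 and 8 below, and the right panel 1 above and 7 below.

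Several members are expressed in immune and endothelial cells as well as in cardiomyocytes, so markers of other cell types were read beside them. Macrophage and monocyte markers summed to 520 to 697 CPM in C26_REV-ERBa, 577 to 925 CPM in C26_GFP, 408 to 547 CPM in PBS_REV-ERBa and 480 to 599 CPM in PBS_GFP hearts. Of 17 tested, 9 were higher and none lower in C26_GFP than in PBS_GFP hearts, and 7 were higher in C26_REV-ERBa than in PBS_REV-ERBa hearts. In C26_REV-ERBa against C26_GFP hearts, where Cd14 was lower, 3 of the 17 were lower too, beside 3.45% of all genes tested. They were Lyve1 (-0.55 ± 0.13), C1qa (-0.29 ± 0.08) and C1qb (-0.27 ± 0.07). The remaining 14, with Csf1r (0.05 ± 0.09) and Adgre1 (-0.14 ± 0.18) among them, did not pass. Over all 17 the median log2 fold change was -0.205, so the list leaned downward. Some of these markers passed in each comparison in which any member passed, while Cd14 passed only in C26_REV-ERBa against C26_GFP. That call does not set the tumour-bearing hearts apart. The log2 fold change of Cd14 for the vector was -0.36 ± 0.10 with a tumour and -0.62 ± 0.17 without it, where it did not pass. The markers' part in the members' differences was not tested.

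Neutrophil markers summed to 2.79 to 13.6 CPM in C26_REV-ERBa, 3.16 to 11.2 CPM in C26_GFP, 2.49 to 4.06 CPM in PBS_REV-ERBa and 2.15 to 5.45 CPM in PBS_GFP hearts, and Ly6g, Elane and Mpo were at 0 in every PBS heart. T and B lymphocyte markers summed to at most 16.3 CPM in C26_REV-ERBa, 15.8 CPM in C26_GFP, 6.13 CPM in PBS_REV-ERBa and 7.95 CPM in PBS_GFP hearts. In C26_GFP against PBS_GFP hearts none of 2 tested neutrophil markers passed, and the 1 tested lymphocyte marker, Cd3e, was higher. In C26_REV-ERBa against PBS_REV-ERBa hearts, where Nfkbiz was higher, 1 of the 2 neutrophil markers was higher too, S100a9 (2.59 ± 0.69). Of 12 endothelial markers 5 were higher and 1 lower in C26_GFP than in PBS_GFP hearts, of 9 fibroblast markers 2 and 1, and of 10 cardiomyocyte markers 1 and 7, while for the vector under a tumour these lists gave 0 and 0, 0 and 1, and 1 and 0. Hepatocyte marker sums were 14.4 to 241 CPM in C26_REV-ERBa and 21.6 to 91.3 CPM in C26_GFP hearts. Without a tumour they were 8.94 to 28.1 CPM in PBS_REV-ERBa and 9.01 to 178 CPM in PBS_GFP hearts. Adipocyte marker sums were 0.292 to 471, 0.377 to 48.4, 0.778 to 33.5 and 0.416 to 29.5 CPM in these groups in that order. The 471 CPM was in C26_REV-ERBa replicate 9, which had its group's highest Rela, Tlr4 and Cd14. Of 10 hepatocyte markers 2 were lower in C26_GFP than in PBS_GFP hearts and 1 was higher in C26_REV-ERBa than in PBS_REV-ERBa hearts. None of 4 adipocyte markers passed in any comparison. The part of these cell types in the members' values was not tested. None of 4 atrial markers passed in any comparison, but their sum ran from 0.437 to 526 CPM in C26_REV-ERBa, 0.180 to 781 CPM in C26_GFP, 0.194 to 317 CPM in PBS_REV-ERBa and 0.901 to 634 CPM in PBS_GFP hearts. Without the 6 hearts whose mean atrial marker level was above 5 log2 CPM, the calls for Nfkb2 in C26_GFP against PBS_GFP (edgeR adjusted p = 0.107) and Nfkbiz in C26_REV-ERBa against PBS_REV-ERBa (0.0763) were lost at nearly the same log2 fold changes, 0.26 where it was 0.29 and 0.51 where it was 0.52, Rela passed as lower in C26_REV-ERBa than in C26_GFP hearts (0.0433), and the other member calls stood.

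The genes whose pattern over the 29 hearts lay closest to Nfkbia were Ddit4, Cebpd and Ercc1, with root mean square differences of 0.329, 0.432 and 0.452 SD after each gene was centred and scaled, where the median gene differed by 1.39 SD. Ddit4, which encodes an inhibitor of mTORC1, had log2 fold changes of 1.92 ± 0.44 for C26_GFP against PBS_GFP and -0.98 ± 0.30 for C26_REV-ERBa against C26_GFP (edgeR adjusted p = 0.00174 and 0.0422). For Ercc1, which encodes a subunit of a DNA repair nuclease, they were 0.87 ± 0.23 and -0.63 ± 0.16 (adjusted p = 0.00484 and 0.0226). Cebpd passed only in the first of these comparisons, with 1.37 ± 0.25 and -0.52 ± 0.17 (adjusted p = 0.000169 and 0.0592). The nearest genes of Rela and Nfkb2, the other members examined, lay farther away: Rela was closest to AI837181 (0.614 SD), Fhl1 (0.688) and Serpinb6a (0.693), and Nfkb2 to Cyp2j9 (0.761), Gga1 (0.791) and Tpra1 (0.793). All these distances share the same libraries and depths and carry no test.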

How the data were processed

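Total RNA of 29 hearts, each from its own animal, was sequenced. Per the labels' protocols a stranded kit was used without selection of polyadenylated RNA. The authors deposited raw read counts per RefSeq gene in a single table, and mm10, STAR 2.4.2a and DESeq2 1.24.0 appear in the submitters' processing notes. How reads were counted, and with which strand setting, those sources do not say. Columns were matched to samples by their labels, and 1 per-sample column was left out because no sample's label matches it, although its name begins like those of the PBS_GFP libraries.

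In edgeR 4.0.16 (R 4.3.3), filterByExpr (minimum count 10, minimum total 15) kept 12928 of 20411 genes, TMM factors scaled the libraries, and all 29 libraries entered a quasi-likelihood fit of the 4 group means. The threshold was a Benjamini-Hochberg adjusted p under 0.05 over the tested genes. A standard error is the log2 fold change divided by the square root of F. CPM used the same scaling, and CPM per kb divides by the table's gene length. At 3207497 to 16853646 counts per library, members had 12 to 1295 counts. Coordinates are those of the table, with 1 added to starts. The procedure was run on simulated data, with changes larger than those of Nfkbiz, Nfkb2 and Rela in C26_GFP against PBS_GFP. How well changes as small as theirs are found was not tested. All 406 pairs of libraries differed by more than sampling noise, the closest with a chi-square of 2.73 per degree of freedom.

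The members and the gene lists were chosen with earlier results of these data known. Named genes were all members, up to 3 genes with the smallest p per pathway list in the first 2 comparisons, and the 3 nearest genes of the 3 members with the smallest p in C26_GFP against PBS_GFP. Alternatives were RLE and upper quartile scaling, DESeq2 1.42.0, limma 3.58.1 voom with sample weights, a replicate block, other filters, fitting the compared groups only, robust fitting, an adjusted p under 0.1, and leaving out libraries.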

Additional observations from a re-analysis of the deposited data

Results flagged for a closer look

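In each of 40 groups of values (10 members in 4 groups of hearts) the highest and lowest heart were set against the others, and 2 stood far from the rest of their group, where chance gives about 1 in 20. Nfkb2 was at 18.1 CPM in PBS_REV-ERBa replicate 5, and the nearest other heart of that group was at 14.7 CPM. Tnfaip3 was at 10.7 CPM in PBS_REV-ERBa replicate 4, and the nearest other heart was at 8.59 CPM.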

How the results depend on the processing

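Of 1990 values of single members under the alternatives, 1951 kept their side of the threshold, 35 lost the call and 4 gained it. No called value changed sign, and 78 values that passed in neither fit did. Nfkbia in C26_GFP against PBS_GFP passed under every alternative run (log2 fold change 0.84 to 0.99).

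Members passing numbered 4 in C26_GFP against PBS_GFP (2 to 4 with 1 library left out) but 1 without the 5 libraries above 10000000 counts, which took all genes passing to 1972 where 3642 had passed. In C26_REV-ERBa against C26_GFP the 2 members became 1 without those libraries, 1 with the replicate block, 1 with only the compared groups fitted, 3 without 6 libraries with high atrial markers and 3 with limma voom with sample weights (Rela at -0.15, adjusted p = 0.0321), and 0 to 3 with 1 library left out. In C26_REV-ERBa against PBS_REV-ERBa the 1 member became 0 with the block, with the compared groups only, and without the atrial-marker libraries, and 0 to 1 with 1 library left out.

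Over all genes, the 931 calls of C26_REV-ERBa against C26_GFP became 291 with the block, 327 with the compared groups only, 1772 with limma voom with sample weights and 1709 at an adjusted p under 0.1, and 295 to 1778 with 1 library left out, the ends being C26_REV-ERBa replicates 7 and 9. The 935 of C26_REV-ERBa against PBS_REV-ERBa became 450 with the block, 525 without the atrial-marker libraries and 1593 at an adjusted p under 0.1, and 476 to 1201 with 1 library left out. The 0 of PBS_REV-ERBa against PBS_GFP became 1 with DESeq2, with the compared groups only and with voom with sample weights, and 0 to 1 with 1 library left out. The 0 of the interaction became 15 with DESeq2 and 4 with voom with sample weights, which changes the test and the weighting of libraries together. The causes were not tested.

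With the replicate block the adjusted p was 0.089 for Nfkbiz in C26_GFP against PBS_GFP, 0.0662 for Nfkbia in C26_REV-ERBa against C26_GFP and 0.0569 for Nfkbiz in C26_REV-ERBa against PBS_REV-ERBa. Each heart has its own animal, so replicate numbers were taken as names and the block as an alternative. Of 32 same-number pairs 5 had a correlation of deviations above 0.1, and 4 of 29 libraries correlated best with their own number. No chance level stands beside these counts, so they do not decide whether same-number hearts were handled together. Other scalings moved the median of all genes by at most 0.017 (log2). Among the members, low counts limit Tnfaip3 most, with 12 counts in C26_REV-ERBa replicate 8.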
